A study of Mus musculus with 6 samples.

Results

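The alpha- and beta-crystallins are the abundant soluble proteins of the lens. All probe sets annotated to a single gene among Cryaa, Cryab, Cryba1, Cryba2, Cryba4, Crybb1, Crybb2 and Crybb3 were taken from the array, which gave 10 probe sets for the 8 genes, of 22626 probe sets tested in all. Cryab has 3 of them and each other gene has 1. The samples are lens RNA of 3 wild-type and 3 Pax6 heterozygous mouse pups, 1 day old, with the pair of lenses of a single mouse in each sample. The wild-type mice had an NMRI background, and the heterozygous mice (Pax6 lacZ/+) carry a lacZ allele in place of a working copy of Pax6 in every cell. The samples of each genotype are numbered 1 to 3, and what samples with the same number share is not given in the sources used here.

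Alpha-crystallins belong to the small heat shock proteins and act as chaperones that keep other proteins from aggregating. Beta-crystallins are structural proteins built from Greek key motifs. They form dimers and larger complexes, and their acidic (A) and basic (B) forms are named for their charge. Together with the gamma-crystallins they fill the elongated fiber cells and give the lens its refractive index. Pax6, large Maf and Sox factors are known regulators of crystallin genes, and Pax6 has been described both as an activator and as a repressor of them. Cryab is also expressed outside the lens, in heart and skeletal muscle among other tissues, and is induced by stress.

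Values are signal intensities normalized by robust multichip average (RMA), on the linear scale unless said otherwise. A signal depends on the probes as well as on the RNA, so the signals of different probe sets are not compared as amounts. At the brightest probe set of each gene, every member except Crybb2 ranked between 1 and 26 of the 22626 probe sets in every sample, and in 5 of 6 samples the brightest gene on the array was a member. The control probe sets of the manufacturer reached 25522 to 27233, above the highest gene (16153 to 17785 by sample). Of 7 lens fiber markers, Crygs, Mip and Bfsp1 read 5296 or more in every sample while Maf read 10.1 to 18.8, and all 10 muscle markers had a median below 15. Pax6, the gene altered in these mice, read 1169, 1760 and 963 in the wild-type samples 1 to 3 and 942, 1170 and 882 in the heterozygous samples, lower in each same-numbered pair but with overlapping genotypes (limma, adjusted p = 1.00). The study itself reported less Pax6 RNA in heterozygous lenses, from its arrays and from quantitative RT-PCR.

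The start regions of 4 members are shown because these genes differed in how their signals varied between samples. Crybb2 varied most within a genotype and Crybb1 least, Cryba1 was highest in sample 3 of both genotypes, and Cryaa stands for the rest. They are the 200 bases before the RefSeq start of each gene in GRCm38.p6, printed 5′ to 3′ on the gene's strand, at chr17:31677731-31677930 (plus strand) for Cryaa, chr11:77725294-77725493 (minus) for Cryba1, chr5:112255620-112255819 (plus) for Crybb1 and chr5:113070118-113070317 (minus) for Crybb2. Capitals mark TGCTGA, one side of the recognition element of Maf factors, and TATAAA, a form of the TATA box.
Cryaa: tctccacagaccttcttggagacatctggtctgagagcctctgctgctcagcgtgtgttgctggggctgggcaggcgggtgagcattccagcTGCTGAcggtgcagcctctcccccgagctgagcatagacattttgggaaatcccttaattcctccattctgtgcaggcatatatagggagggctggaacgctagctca
Cryba1: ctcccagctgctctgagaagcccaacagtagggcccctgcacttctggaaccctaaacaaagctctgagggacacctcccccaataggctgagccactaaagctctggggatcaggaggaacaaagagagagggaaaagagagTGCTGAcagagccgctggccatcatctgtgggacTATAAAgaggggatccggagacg
Crybb1: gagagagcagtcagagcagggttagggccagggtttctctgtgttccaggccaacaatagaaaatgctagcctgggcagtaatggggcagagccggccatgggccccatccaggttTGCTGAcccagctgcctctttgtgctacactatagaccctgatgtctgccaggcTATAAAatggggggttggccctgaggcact
Crybb2: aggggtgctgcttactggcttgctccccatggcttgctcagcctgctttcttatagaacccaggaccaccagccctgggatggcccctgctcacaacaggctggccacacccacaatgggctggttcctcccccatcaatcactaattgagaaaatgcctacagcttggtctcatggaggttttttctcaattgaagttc

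Of the 8 members, 7 had a start region in the RefSeq promoter table; Cryab was not matched. In the 250 bases before the start, read on both strands, TGCTGA was found in 6 of the 7, all but Crybb2, against 16.1% of the 32851 promoters in the table. Its first base lay 108 bases before the start in Cryaa, 57 in Cryba1 and 84 in Crybb1. Cryba4 held it at 182, 135 and 77 bases, and Cryba2 and Crybb3 held it on the opposite strand. TATAAA was found in Cryba1 and Crybb1, 2 of the 7, against 12.4% of all promoters. The heat shock element core GAANNTTC and the core TTCACGC of a Pax6 paired-domain site were each found in 0 of the 7, against 6.69% and 1.03% of all promoters. The letters were chosen with these sequences in view, none of the matches overlap, and a match is a description of the sequence and not of binding.

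The question asked of the genotypes was whether the loss of a Pax6 copy goes with a different crystallin signal. Signals of the alpha-crystallins were close in the 2 genotypes. Cryaa, the alpha-crystallin largely restricted to the lens, read 12511, 15674 and 13556 in the wild-type samples and 12315, 14921 and 12851 in the heterozygous samples. The values of the genotypes overlapped, and sample 2 was the highest in both. The heterozygous mean was 13362 ± 1376 against 13914 ± 1612 in wild type (SD, n = 3 mice each), or 96.0%. The log2 difference of Cryaa, heterozygous minus wild-type, was −0.06 ± 0.14 (standard error), with a 95% interval from −0.40 to 0.28 (limma, adjusted p = 1.00).

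**Figure D1:**
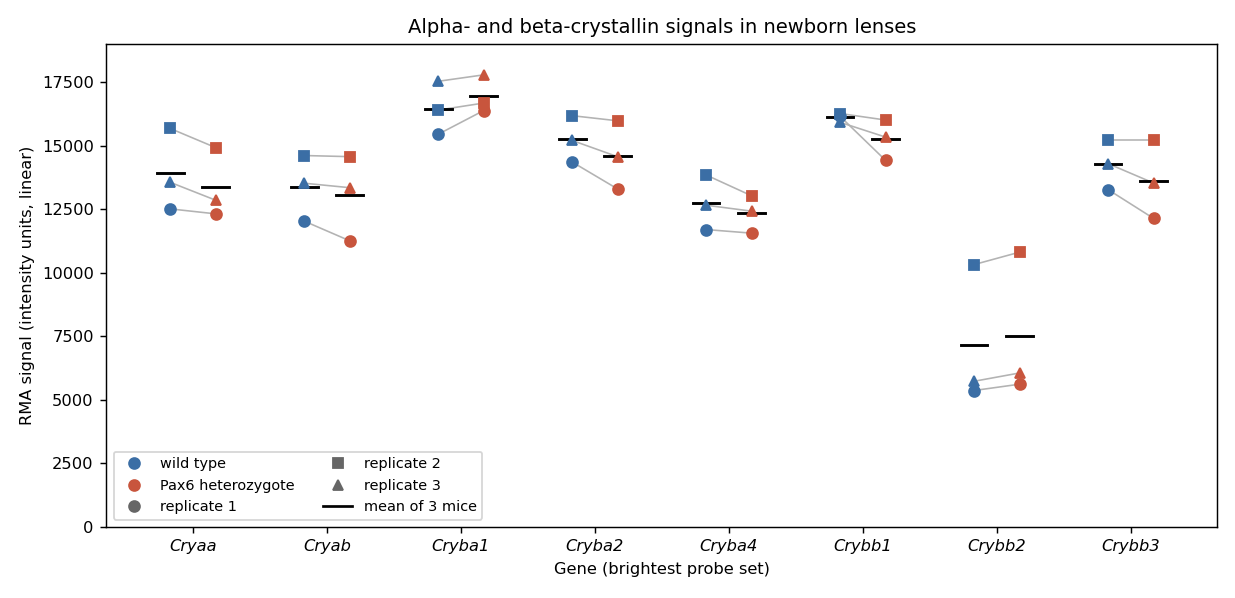
RMA signal (intensity units, linear axis from 0) of the brightest probe set of each alpha- and beta-crystallin gene in each sample; blue marks wild-type and red heterozygous lenses, shapes give the replicate number, gray lines join samples with the same number and black bars give the mean of 3 mice. The genotypes overlap for every gene, and Crybb2 is the gene whose sample 2 stands far above samples 1 and 3 in both genotypes.

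Cryab, the alpha-crystallin found in many tissues, has 3 probe sets that read very differently. The brightest, 1416455_a_at, read 12030, 14610 and 13521 in wild-type and 11255, 14566 and 13345 in heterozygous samples, so that log2 signals differed by −0.04 ± 0.15 (standard error; limma, adjusted p = 1.00). The second, 1434369_a_at, read 5062, 5746 and 5472 in wild-type and 4898, 5604 and 5807 in heterozygous samples, a difference of 0.00 ± 0.12. Neither separated the genotypes. The third, 1435837_at, read 8.36, 10.1 and 10.2 in wild-type and 12.9, 12.3 and 12.1 in heterozygous samples, so that all heterozygous values lay above all wild-type values. The wild-type mean was 9.54 ± 1.03 and the heterozygous mean 12.4 ± 0.395 (SD), and log2 signals differed by 0.39 ± 0.13 (standard error; limma, unadjusted p = 0.0199, adjusted p = 1.00).

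These values of 1435837_at lay near the level of the array background, on either side of it. The 33 probe sets of olfactory receptor genes, which serve as a guide to background, had medians between 9.65 and 11.0 by sample. Of them, 2, 17 and 9 read below the Cryab probe set in the wild-type samples 1 to 3 and 31, 32 and 29 in the heterozygous samples. It lay within their 5th to 95th percentiles in wild-type samples 2 and 3 and heterozygous sample 3, below the 5th (8.41) in wild-type sample 1, and above the 95th (12.7 and 11.4) in heterozygous samples 1 and 2. The probe set ranked between 14381 and 22076 of 22626, and the annotation table gives no accession for it. It is the Cryab probe set that the study's list of changed transcripts holds, a list chosen on these samples. When 50 was added to every signal before the logarithm the difference was 0.07. The 8 genes at their brightest probe set gave no such separation.

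**Figure D2:**
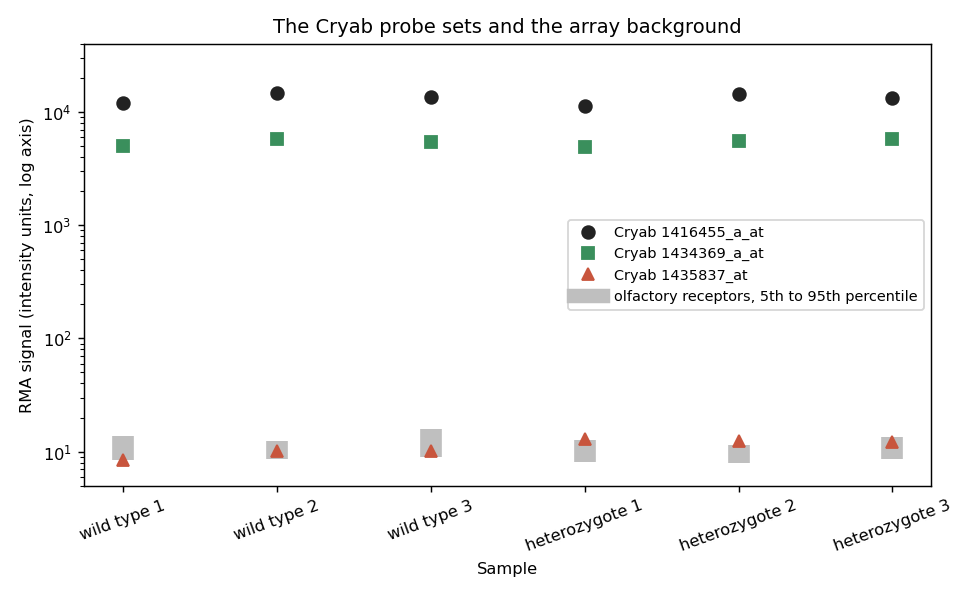
RMA signal (intensity units, log axis) of the 3 Cryab probe sets in each sample, with gray bars from the 5th to the 95th percentile of 33 olfactory receptor probe sets on the same array. The 2 bright probe sets stay between 4898 and 14610 and do not part the genotypes, while 1435837_at lies between 8.36 and 12.9, in or next to the background range.

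Among the acidic beta-crystallins, Cryba1 had slightly higher and Cryba2 and Cryba4 slightly lower signals in heterozygous lenses, and none of these differences exceeded the spread between mice. Cryba1, whose transcript encodes both the A3 and the A1 protein from separate start codons, read 15447, 16399 and 17531 in wild-type and 16381, 16676 and 17785 in heterozygous samples. Each heterozygous sample lay above the wild-type sample of its number, at 106%, 102% and 101% of it. Its log2 difference was 0.04 ± 0.11 (standard error). Cryba2, at 14357, 16179 and 15204 in wild-type and 13293, 15977 and 14562 in heterozygous samples, was lower in 3 of 3 pairs, and its heterozygous mean was 95.8% of wild type. Cryba4 read 11698, 13846 and 12655 in wild-type and 11555, 13026 and 12421 in heterozygous samples, with a heterozygous mean of 96.9% of wild type. For Cryba2 the log2 difference was −0.06 ± 0.12 and for Cryba4 −0.04 ± 0.12 (standard error), and for all 3 acidic members adjusted p = 1.00 with limma.

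The basic beta-crystallins differed from one another more in their spread than in their genotype difference. Crybb1, a crystallin of fiber cells, read 16153, 16264 and 15917 in wild-type and 14419, 16007 and 15335 in heterozygous samples. The wild-type mean was 16111 ± 177 and the heterozygous mean 15254 ± 797 (SD, n = 3 mice each). The heterozygous sample was the lower of each pair, at 89.3%, 98.4% and 96.3% of wild type, yet heterozygous sample 2 lay above wild-type sample 3. The log2 difference of −0.08 ± 0.11 was the lowest of the 10 probe sets (adjusted p = 1.00). Crybb3 read 13272, 15207 and 14293 in wild-type and 12137, 15207 and 13528 in heterozygous samples, a difference of −0.07 ± 0.13. The deposited values of Crybb3 in the sample 2 of each genotype are identical to the last digit, which was seen on at least 2 arrays for 2 of 44 probe sets with a median of 10000 or more and for 2.00% of the others.

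Crybb2, a basic beta-crystallin whose expression in the mouse lens is known to increase after birth, read 5363, 10318 and 5726 in wild-type samples 1 to 3. In the heterozygous samples it read 5612, 10808 and 6054. Sample 2 stood far above the other samples in each genotype, and the order of the samples was the same in both. The genotype means were 7135 ± 2762 and 7491 ± 2881 (SD, n = 3 mice each). Within pairs of the same number the heterozygous signal was 105%, 105% and 106% of wild type, so that the pairs agree closely while the mice of a genotype do not. The log2 difference was 0.07 ± 0.35 (standard error), with an interval from −0.76 to 0.91. With the replicate number taken as a block the standard error fell to 0.09 and the interval ran from −0.16 to 0.30 (limma, adjusted p = 0.876).

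**Figure D3:**
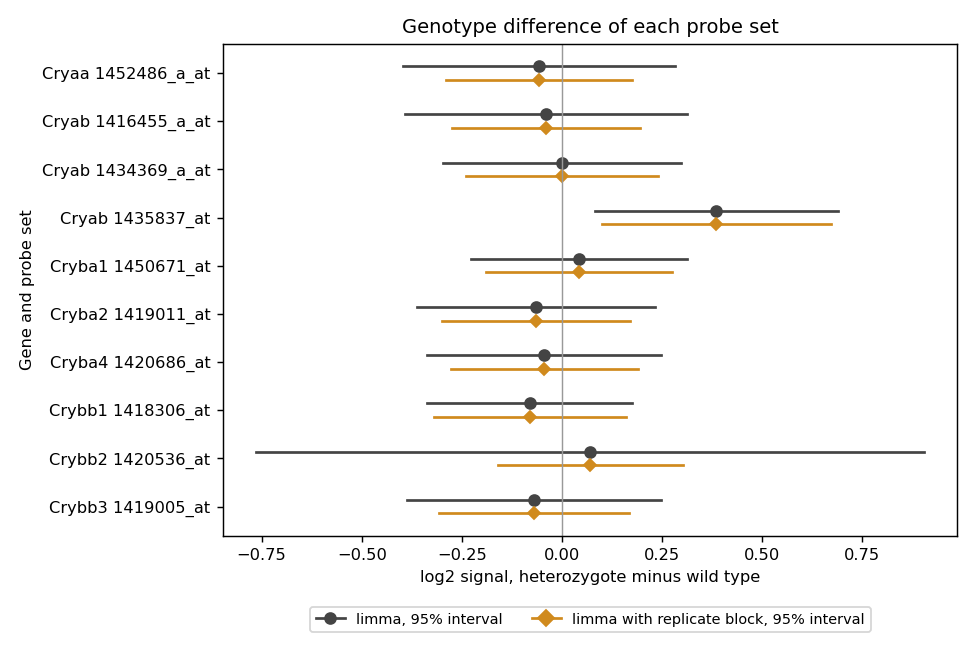
Difference of log2 signal between Pax6 heterozygous and wild-type lenses for each of the 10 probe sets; points give the estimate and lines the 95% interval, without (gray circles) and with (orange diamonds) the replicate number as a block. The 9 bright probe sets lie between −0.08 and 0.07 with intervals that hold 0, the interval of Crybb2 narrows with the block, and the dim Cryab probe set 1435837_at lies at 0.39.

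Across the members, limma called 0 of the 10 at an adjusted threshold of 0.05, and it called 0% of all probe sets. At an unadjusted p under 0.05, 1 of the 10 was higher in heterozygous lenses, the dim Cryab probe set, and 0 were lower, against 0.977% of all probe sets higher and 1.01% lower. The 2-group test named in the methods, run here on log2 signals, likewise gave 1 of the 10 at an unadjusted p under 0.05. It gave 665 of all 22626 probe sets at that threshold. After adjustment it gave 0 of the 10 and 0 of all probe sets. The study itself applied that test with a looser threshold, p under 0.10. The genotypes did not overlap in the same 1 probe set on the higher side and in 0 on the lower side, against 2.65% and 3.53% of all probe sets. Of the 9 bright probe sets, 6 had a lower and 3 a higher mean log2 signal in heterozygous lenses. Their median difference was −0.04 and the median over all probe sets was −0.01. In all 3 pairs 5 of the 9 were lower and 2, those of Cryba1 and Crybb2, were higher. How many of all probe sets kept a direction in all 3 pairs was not computed, so these counts have no background. A p above the threshold does not show equal signals. The 95% intervals of the bright probe sets other than that of Crybb2 allow ratios between 0.759 and 1.24, and with the replicate block those of all 9 allow ratios between 0.801 and 1.23. Probe sets near the top of the array vary little: the median SD within a genotype was 0.10 on the log2 scale for those with a median of 10000 or more and 0.28 for those of 100 or more, and how far the scale is compressed there cannot be read from these values.

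The order of the samples by replicate number was much the same in both genotypes. Sample 2 was the highest of its genotype in both genotypes for 7 of the 8 genes at their brightest probe set, against 25.1% of the 4492 genes with a median signal of at least 100. Cryba1 was the exception and read highest in sample 3 of both genotypes. The order was not particular to the members. Sample 2 was also highest in both genotypes for 7 of 10 other lens fiber proteins and 4 of 7 lens fiber markers, lists that share genes. It was so for 3 of 6 gamma-crystallins and 0 of 9 lens epithelium markers. Sample 1 was the lowest in both genotypes for 7 of the 8 genes, all but Crybb1. The share of all genes with that order was not computed, so this count is not set against a background. An F test of the replicate number in limma, with genotype in the model, passed an adjusted p of 0.05 for 1 of the 10 probe sets, that of Crybb2 (adjusted p = 0.0105), against 19.4% of all probe sets. The excess of sample 2 over sample 1 in Crybb2 was 1.92-fold in wild-type and 1.93-fold in heterozygous lenses. Over sample 3 it was 1.80-fold and 1.79-fold. For the other genes sample 2 exceeded sample 1 by 1.01-fold to 1.29-fold, with Cryaa at 1.25-fold and 1.21-fold and Cryab at 1.21-fold and 1.29-fold. The adjusted p of the F test was 0.220 for Cryaa and 0.194 for the brightest Cryab probe set. Members share arrays, so their common order is not independent evidence from gene to gene.

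**Figure D4:**
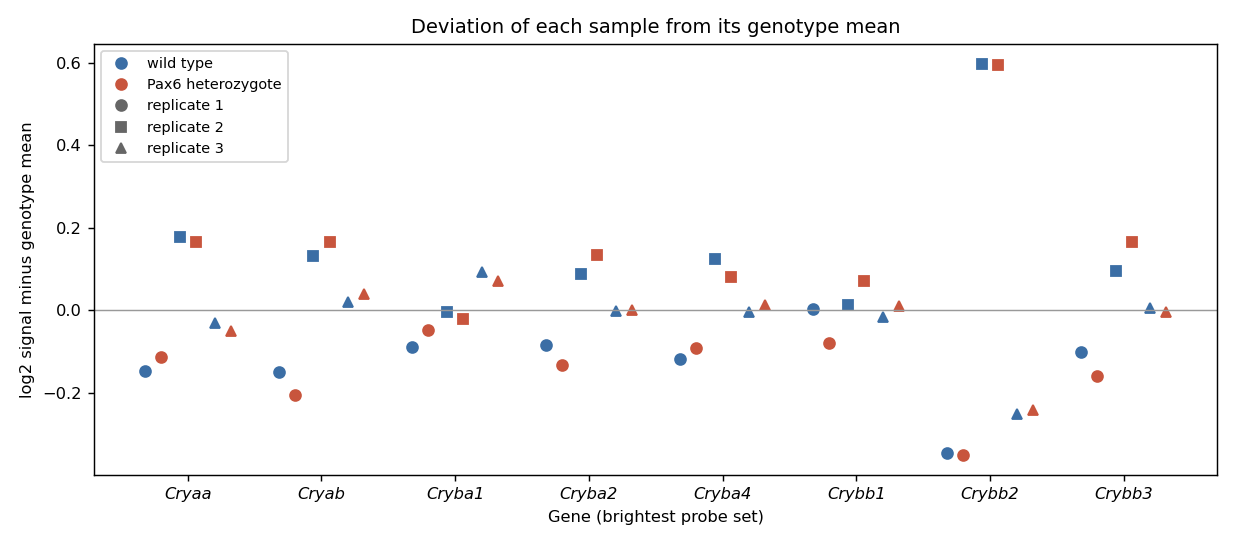
Log2 signal of each sample minus the mean of its genotype, for the brightest probe set of each gene; colors give the genotype and shapes the replicate number. The Crybb2 deviations of sample 2 are 0.60 and 0.59 in wild-type and heterozygous lenses, those of Cryaa 0.18 and 0.16, and Cryba1 is highest in sample 3 (0.09 and 0.07).

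The spread of Crybb2 within a genotype, 0.52 on the log2 scale, was larger than that of 86.1% of the 7013 probe sets with a median of at least 100. The other bright members lay between 0.05 and 0.17, and the lowest was that of Crybb1, which exceeded 1.34% of those probe sets. Crybb2 and Crybb3 are next to each other in RefSeq. Cryba4 and Crybb1 are annotated there as overlapping, although the starts used here lie apart on opposite strands and face away from each other. The SD within a genotype was 0.13 for Crybb3, 0.11 for Cryba4 and 0.05 for Crybb1. Hspb2, a small heat shock protein gene that overlaps Cryab in RefSeq, read 248, 472 and 208 in wild-type and 233, 457 and 245 in heterozygous samples. It was highest in sample 2 of both genotypes, as the brightest Cryab probe set was (limma F test of the replicate number, adjusted p = 0.0116 for Hspb2).

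Other genes of the lens and of other cell types also differed between replicate numbers. The same F test called 34.0% of the probe sets with a median of at least 100. It called 3 of 7 lens fiber markers, 5 of 10 other fiber proteins, 4 of 9 lens epithelium markers, 5 of 25 regulators and 4 of 6 small heat shock proteins. Among markers of other cell types it called 7 of 9 for endothelium, 4 of 10 for macrophages, 4 of 6 for pigment cells, 3 of 9 for mesenchyme, 2 of 12 for retina and 1 of 4 for red blood cells. It called 0 of 6 gamma-crystallins, 0 of 10 muscle markers and 0 of 6 cornea markers. The summed signal of 7 lens fiber markers was 22352, 30339 and 25990 in the wild-type samples and 21823, 28544 and 26075 in the heterozygous samples, highest in sample 2 of each. That list holds Crygs, the brightest of its genes, and Maf, and 1 of the 7 had a higher mean log2 signal in heterozygous lenses. Gja3, the connexin 46 gene of fiber cells, read 291, 813 and 404 in wild-type and 183, 583 and 279 in heterozygous samples (F test, adjusted p = 0.00705). Hsf4, the heat shock factor of the lens, read 205, 609 and 193 in wild-type and 163, 515 and 174 in heterozygous samples, with sample 2 far above the others as in Crybb2, and it was named after its values were seen (adjusted p = 0.00695). The 9 lens epithelium markers summed to 7985, 5798 and 6832 in wild-type and to 7645, 5048 and 6526 in heterozygous samples, lowest in sample 2. Hey1, Cp and Pdpn, the brightest of them, carry most of that sum. These genes and Pdgfra were lowest in sample 2 of both genotypes, whereas Cdh1 and Cpd were lowest in sample 1 of both. Of the 9 epithelium markers, 6 had a lower mean log2 signal in heterozygous lenses and 3, Slc39a8, Pdpn and Hey1, a higher one. Pdgfra, a growth factor receptor of that epithelium, averaged 618 ± 68.1 in wild type and 409 ± 20.1 (SD) in heterozygotes without overlap (limma, unadjusted p = 0.00292, adjusted p = 1.00). Npnt had the next smallest p of the list, and Foxe3, which defines that epithelium, read 8.77 to 14.7. Endothelium markers summed to 1859, 757 and 789 in wild-type and to 3346, 976 and 1025 in heterozygous samples. Flt1 and Tek, the brightest of them in every sample, carried most of these sums. All 9 of 9 had a higher mean log2 signal in heterozygous lenses, although Pecam1 and Tie1 had medians below 15. Over all genes 5823 of 12393 were higher, the background for such counts in every list. Not every pair showed the difference. In sample 2, Flt1 read 145 in wild type and 140 in the heterozygote and Esam 27.4 and 27.5, whereas Tek read 421 and 604. Pecam1 was the 1 endothelium gene with an unadjusted p under 0.05 (10.6 ± 1.61 and 15.8 ± 4.34, SD), followed by Tek. Macrophage markers summed to 1431, 491 and 469 and to 1581, 1171 and 281, 8 of 10 had a higher mean log2 signal in heterozygous lenses, and Ptprc and Adgre1 had medians below 15. Cd68 and C1qa had the smallest p of that list, neither under 0.05. The part of these cell types in the crystallin signals was not tested. In bulk lens RNA, fewer cells of a type and less RNA per cell cannot be told apart.

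The remaining lists gave the following. Retina markers summed to 607 to 766 in wild-type and 728 to 1099 in heterozygous samples, with 10 of 12 higher. At an unadjusted p under 0.05, 2 were higher, Neurod1 and Otx2, and 1 lower, Elavl4. Neurod1 and Elavl4 had the smallest p, while Rcvrn, of photoreceptors, read 9.15 to 10.5. Otx2 read 194, 156 and 156 in wild-type and 442, 411 and 185 in heterozygous samples. It made up a large part of the sums in heterozygous samples 1 and 2. Pigment cell markers summed to 2200 to 3467 and 1954 to 3229, with 3 of 6 higher, and Rpe65 and Dct had the smallest p. Mitf carried most of these sums and was highest in sample 3 of both genotypes. Tyr, Tyrp1, Dct and Pmel were highest in sample 1 of both. Mesenchyme markers summed to 321 to 807 and 337 to 1058, with 4 of 9 higher, and Eln and Foxc1 had the smallest p. Muscle markers summed to 105 to 107 in wild-type samples 1 and 2, to 405 in wild-type sample 3 and to 102 to 111 in heterozygous samples, and their part in the Cryab signal was not tested. Tnni2 and Ckm had the smallest p of the muscle list, and Tnni2 read 37.4 in wild-type sample 3 and 11.5 to 14.9 elsewhere. Of 4 red blood cell markers 3 had medians below 15 (sums from 43.5 to 60.4, Hba-a1 and Hbb-bh1 with the smallest p), as did 6 of 6 cornea markers (sums from 62.5 to 64.9, Aldh3a1 and Krt14 with the smallest p).

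When the fit took replicate number as a block, the probe sets with an unadjusted p under 0.05 went from 450 to 2042 of all 22626. Among listed genes that count went from 1 to 5 of 9 for lens epithelium markers. Of those 5, Cdh1, Pdgfra, Npnt and Cpd were lower and Slc39a8 was higher in heterozygous lenses. The counts went from 1 to 2 of 7 for lens fiber markers, from 1 to 3 of 9 for endothelium and from 0 to 1 of 10 for macrophages. For mesenchyme they went from 1 to 4 of 9 and for retina from 3 to 4 of 12. They went from 2 to 4 of 25 for the regulators, where Pax6 and Hsf4 were added to Gata3 and Mafg, from 1 to 2 of 10 for other fiber proteins and from 0 to 1 of 6 for small heat shock proteins. The other lists, gamma-crystallins included, had 0 under either fit, and no listed gene passed the adjusted threshold with the block.

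Among related genes, no list had a member past the adjusted threshold with limma. Of 6 gamma-crystallin genes measured, the other large family of fiber crystallins, 3 had higher and 3 lower mean log2 signals in heterozygous lenses, with a median difference of −0.01. For the alpha- and beta-crystallins 2 of the 8 genes had higher and 6 lower means, with a median of −0.05. Crygn had the smallest p of the gamma-crystallins, at 9086 ± 665 in wild type against 7866 ± 810 (SD), a log2 difference of −0.21 ± 0.13, and Crygs had the next (10970 ± 1119 and 11320 ± 1097, SD). Sample 2 was highest in both genotypes for 3 of these 6 genes, Crygd, Crygn and Crygs. Of 10 other fiber proteins measured, 4 were higher and 6 lower, and 1, Dnase2b, the nuclease that degrades fiber cell DNA, had an unadjusted p under 0.05 on the lower side (793 ± 156 and 554 ± 86.5, SD). Crym, with the next smallest p, stood at 49.2 ± 18.2 and 71.8 ± 37.4.

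Of 25 measured regulators of crystallin genes, 10 had a higher and 15 a lower mean log2 signal in heterozygous lenses, with a median of −0.05. With an unadjusted threshold of 0.05 the test gave 2, both lower. Mafg, a small Maf partner of the large Maf factors, read 409, 402 and 405 in wild-type and 288, 315 and 341 in heterozygous samples without overlap, and log2 signals differed by −0.37 ± 0.11 (standard error). Gata3, a zinc finger factor of lens fibers, read 84.5, 77.6 and 92.5 in wild-type and 58.6, 41.8 and 61.7 in heterozygous samples, a difference of −0.67 ± 0.18. For both, adjusted p = 1.00 with limma. Maf and Sox1, factors known to be needed for fiber crystallin expression, read 10.1 to 18.8 and 8.84 to 10.5, the level of the background guide or just above it. A low reading, for these genes or for Foxe3, does not show that the RNA is absent, since a signal depends on the probes. The 6 small heat shock proteins measured beside the members were split 3 and 3, and the smallest p was that of Hspb1 (263 ± 93.8 and 389 ± 118, SD), followed by Hspb3.

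The genes whose log2 signals followed the members most closely over the 6 arrays were found by Pearson r among 4484 other genes with a median signal of at least 100. For Cryaa these were Ccndbp1 (r = 0.998), Trappc4 (0.995) and Psmb1 (0.995). Ccndbp1 read 270, 646 and 370 in wild-type and 246, 520 and 279 in heterozygous samples, a wider swing than that of Cryaa itself. For Cryab they were Bcl2l13 (0.993), Phax (0.986) and Anapc1 (0.982). For the mean of the 6 beta-crystallins they were Gadd45g (0.998), Mecr (0.997) and Vps29 (0.992). Crybb2 weighs most in that mean, since its SD within a genotype was 0.52 on the log2 scale against 0.05 to 0.13 for the other 5 genes. Gadd45g, a growth arrest gene, read 173, 630 and 274 in wild-type and 133, 570 and 252 in heterozygous samples, highest in sample 2 of each as most members were. With so few arrays high values of r are common: 134, 52 and 122 genes exceeded 0.95 for Cryaa, Cryab and the beta mean, and the points share arrays and replicate numbers.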

How the data were processed

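Newborn lens RNA of 3 wild-type and 3 Pax6 heterozygous mice was measured on Affymetrix arrays after NuGEN amplification of 50 ng of RNA. The authors deposited signal intensity values per probe set, normalized by RMA and on the linear scale; the version is not given in the sources used here. RMA adjusts the arrays to a common distribution, which can change differences among the brightest probe sets. Arrays have no count depth, and the number of mice limits the precision.

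From these values log2 signals were computed. The 64 control probe sets were left out, and 22626 were compared with limma 3.58.1 in R 4.3.3 (lmFit, eBayes), with p values adjusted by Benjamini-Hochberg over all of them. Probe sets were named by the platform annotation, and lists took the brightest probe set of a gene. All probe sets of the members were named, Pax6 and Hspb2, from each list the 2 genes with the smallest p, and the genes most alike by Pearson r; others were named after their values were seen. Members and lists were chosen with earlier results of these data known. Samples with the same number deviated together (correlations of 0.645, 0.734 and 0.604 over probe sets, against −0.496 to −0.0751 for different numbers), so the replicate block was run as an alternative, beside the methods' t-test, quantile normalization, median centring, a signal filter, an intensity trend, array weights, an offset of 50, means over probe sets and leaving out samples. What a number marks is not stated in the sources used here. The F test of the replicate number and the motif letters were chosen after the data were seen. The methods name a larger array design than the number of probe sets in the table corresponds to. Steps were tested on simulated data. Start regions come from RefSeq (GRCm38.p6). Figures used matplotlib 3.10.9.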

Additional observations from a re-analysis of the deposited data

How the results depend on the processing

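The 10 probe sets were recomputed under 17 alternatives, and none passed an adjusted p of 0.05 in any of them (adjusted p from 0.458 to 1.00). Of 167 values, 151 kept their direction and 16 changed sign, all of them small differences that had passed no test. Median centring turned the second Cryab probe set to −0.025, and averaging the 3 Cryab probe sets gave 0.12, since the dim one enters that mean. When any 1 sample, or sample 2 of both genotypes (chosen after seeing the data), was left out, the log2 difference ranged from −0.14 to 0.032 for Cryaa, from −0.12 to 0.063, from −0.049 to 0.074 and from 0.29 to 0.44 for the Cryab probe sets in order of brightness, from −0.0016 to 0.090 for Cryba1, from −0.13 to 0.0023 for Cryba2, from −0.10 to 0.018 for Cryba4, from −0.12 to −0.04 for Crybb1, from −0.23 to 0.37 for Crybb2 and from −0.15 to 0.011 for Crybb3. Crybb2 lay at 0.37 without wild-type sample 2 and at −0.23 without heterozygous sample 2, and at 0.07 without both. The unadjusted p of the dim Cryab probe set was 0.0638 without wild-type sample 1, 0.0591 without heterozygous sample 1 and 0.0501 without both samples 2. With the replicate block 0 members and 2 of all probe sets passed, against 0 without it, and at an unadjusted p under 0.05 the count over all probe sets was 2042 against 450. It changed no call of a member probe set at either threshold, and for the other lists its counts stand beside their results. Filtering to a median signal of at least 100 removed the dim Cryab probe set and left 87 such calls. Amounts of bright and dim probe sets cannot be compared on these arrays, and dim signals mix with background.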
